A study of Mus musculus with 6 samples.

Results

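The question here was which genes differed in mRNA level between mouse embryonic fibroblasts (MEFs) given MFI8 and MEFs given vehicle. MFI8 is a small molecule inhibitor of the mitofusins MFN1 and MFN2. The cells were WT MEFs grown in DMEM with serum, treated with 20 µM MFI8 for 6 h or with vehicle. How long the vehicle was applied is not stated in the sources used here. Messenger RNA was sequenced from 2 independent biological replicates per group, numbered 1 and 2, and 2 libraries of MEFs treated with 1 µM MASM7, a mitofusin activator, were in the same series. No group carried a knockout or transgene. Of 55291 genes listed, 12988 had at least 10 counts in each of the 4 MFI8 and vehicle libraries, and these are the genes described.

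Mitofusins are GTPases of the outer mitochondrial membrane that tether neighbouring mitochondria so that their membranes fuse. Cells answer trouble in mitochondria partly in the nucleus: eIF2α kinases raise translation of ATF4, a transcription factor that, with CHOP, switches on amino acid transporters, amino acid synthesis and brakes on translation. Oxidant and metal stress act through NRF2 and MTF1 on antioxidant genes and metallothioneins, and heat shock factor acts on chaperones. Serum response factor (SRF) controls immediate early genes and, with MRTF, actin and contractile genes.

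Libraries held between 22791792 and 30677751 counts on genes, with MFI8 replicate 2 the deepest. TMM factors lay between 0.987 and 1.01. Fibroblast markers were abundant, with 12 of 14 among the genes described and a summed level between 5734 and 7369 TPM in the 6 libraries. Every epithelial, endothelial, skeletal muscle and pluripotent marker on fixed lists was under 1 TPM in all 6 libraries. Of 9 macrophage markers, 7 were under 1 TPM and 4 were at 0, and the list summed to between 13.5 and 16.9 TPM. The summed neural markers were at 52.6 and 55.0 TPM with vehicle and at 74.4 and 67.1 TPM with MFI8, with 6 of 8 markers under 1 TPM in every library. With MASM7 the sum was 67.8 and 67.0 TPM. Most of it was Tubb3, at 47.1 and 49.6 TPM with vehicle and 68.4 and 61.6 TPM with MFI8. Map2 was at 5.24 and 4.92 TPM with vehicle and 5.83 and 5.12 TPM with MFI8. Of the 12 fibroblast markers measured, 7 fell with MFI8 and 0 rose by the test defined below, namely Col3a1, Dcn, Pdgfra, Pdgfrb, Twist2, Prrx1 and S100a4. Pdgfra, a growth factor receptor, was at 42.6 and 25.4 CPM with vehicle and at 31.5 and 20.7 CPM with MFI8, so that it differed more between replicates than with treatment. Less RNA per cell and fewer cells of a type cannot be told apart in bulk samples. The part of these markers in the other differences was not tested.

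Most genes lay close to vehicle, and differences between replicates were of the same order as those between groups. A total of 474 genes differed by at least 1.5-fold between MFI8 and vehicle in replicate 1 and 624 in replicate 2, while 596 differed by that much between the vehicle libraries themselves. Both pairs passed 1.5-fold in the same direction for 76 genes, and in opposite directions for 32. Of the 76 genes, 42 were higher with MFI8 (0.323% of all genes described) and 34 were lower (0.262%). Both MFI8 libraries lay above both vehicle libraries for 2587 genes (19.9%) and below both for 2699 (20.8%). Across the 12988 genes, the log2 differences of the pairs had a Pearson correlation of 0.22 and a Spearman correlation of 0.32, and over the 6494 more highly counted genes the Pearson correlation was 0.61. These correlations are across genes, which are not independent replicates, and both pairs carried the same GC trend described below.

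**Figure D1:**
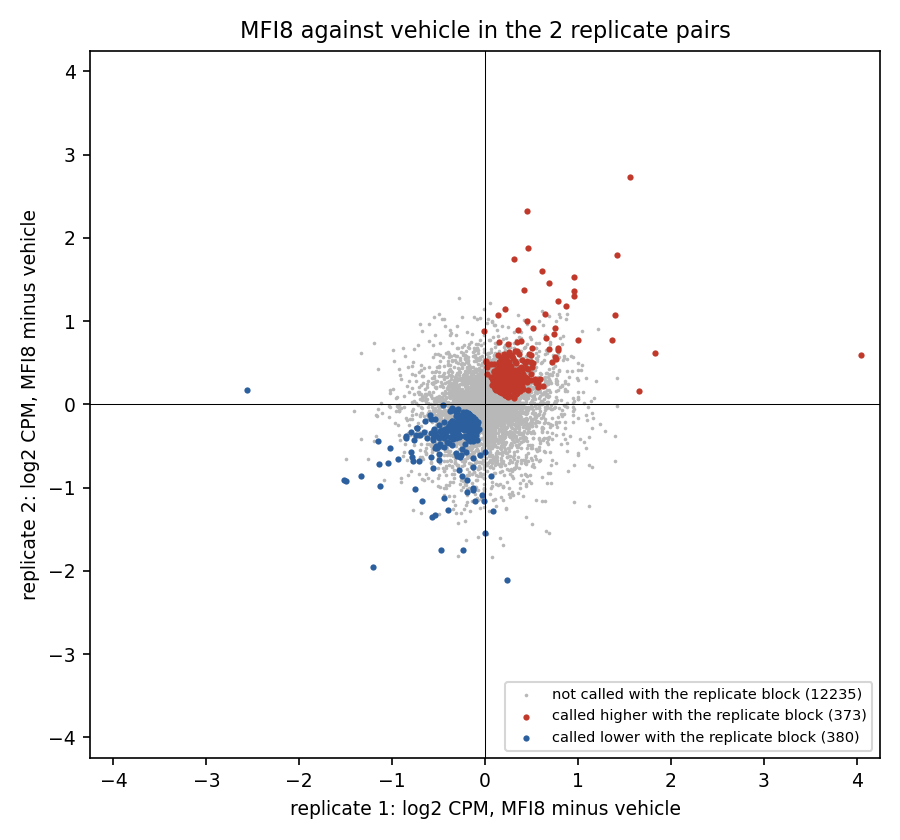
Each point is 1 of 12988 genes, plotted by its log2 CPM difference between MFI8 and vehicle in replicate 1 (x axis) and in replicate 2 (y axis), with a prior count of 2. Red and blue mark the 373 genes called higher and the 380 called lower in the fit with the replicate block. Of the 753, 747 had the same sign in both pairs, which choosing genes by that fit favours. Among all 12988 genes 8386 did (64.6%).

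With all 6 libraries fitted by edgeR's quasi-likelihood test without a term for the replicate number, 0 genes (0%) passed a Benjamini-Hochberg adjusted p of 0.05, and the smallest adjusted p was 0.118. In the same fit 652 genes were higher (5.02%) and 707 lower (5.44%) at an unadjusted p under 0.05, and 37 had an adjusted p under 0.25. DESeq2 without the block called 47 genes, and limma on log2(TPM + 1) called 0. Libraries with the same number deviated together, and with that number as a block edgeR called 373 genes higher (2.87%) and 380 lower (2.93%). Scaled by library size alone in place of TMM, which moved the median log2 fold change by 0.017, the split was 466 higher and 264 lower. With the same block DESeq2 called 193 genes, and limma on log2(TPM + 1) called 0, with a smallest adjusted p of 0.0501. In the text below, "rose" and "fell" mean an adjusted p under 0.05 in edgeR's quasi-likelihood fit with the replicate block, and log2 fold changes come from the fit without it. Counts of calls in the gene lists below stand beside 2.87% of all genes that rose and 2.93% that fell. The calls over all genes were mostly small, with a median size of 0.24 on the log2 scale (1.18-fold). Only 73 of the 753 reached 1.5-fold, 35 higher and 38 lower, and both libraries of each group were separated in 651. An exact permutation test of 2 libraries against 2 cannot go below 0.333, so none was run on single genes.

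The direction of a call followed the base composition of the transcript. Among protein-coding genes sorted into quintiles by transcript GC content, the median log2 fold change was -0.08 in the lowest quintile and 0.08 in the highest. The trend was -0.06 to 0.05 in replicate 1 and -0.09 to 0.11 in replicate 2. It ran the other way between the vehicle libraries, from 0.07 to -0.09 for replicate 2 minus replicate 1. For MASM7 minus vehicle the trend had the same direction as for MFI8. It went from -0.04 to 0.05 in replicate 1 and from -0.15 to 0.18 in replicate 2. In the lowest quintile 0.771% of genes rose and 8.07% fell, and in the highest 7.39% rose and 0.725% fell. When offsets correcting each library for GC and length were added to the block, 257 genes were called higher and 351 lower, and 426 of the 753 calls were kept, 212 higher and 214 lower. The number that passed with these offsets is given for the larger groups of genes below.

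**Figure D2:**
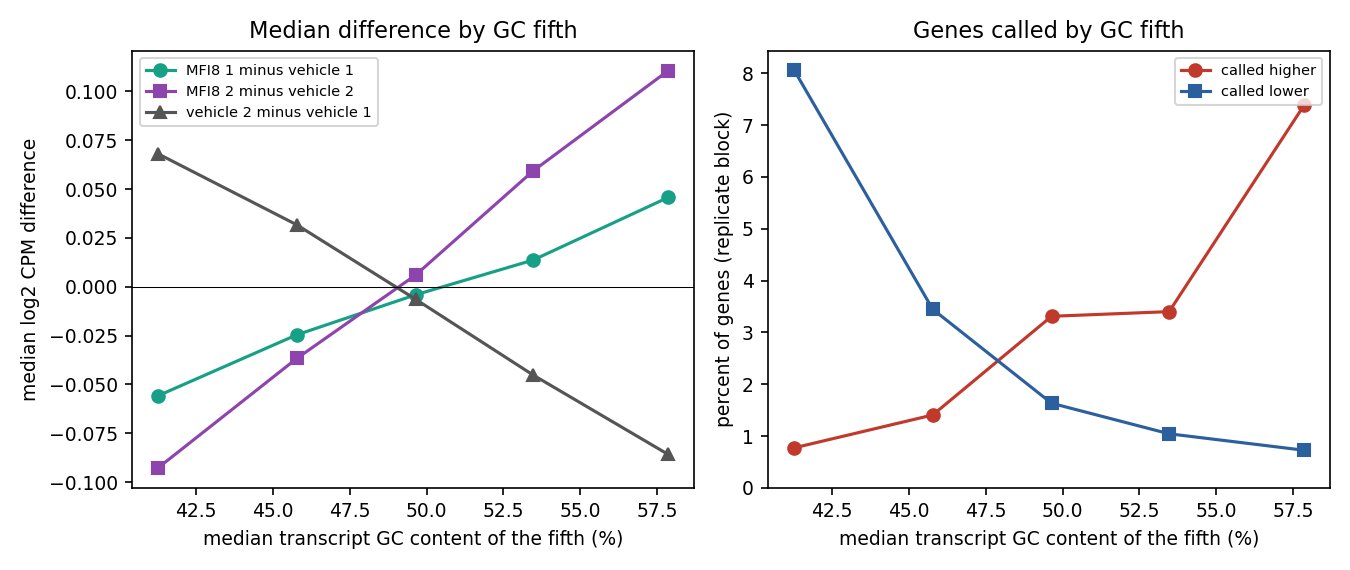
Left, the median log2 CPM difference of protein-coding genes in quintiles of transcript GC content, for MFI8 minus vehicle in each replicate and for vehicle replicate 2 minus replicate 1. Right, the percentage of genes in each quintile called higher or lower with the replicate block, where calls lower peaked at 8.07% in the lowest quintile and calls higher at 7.39% in the highest.

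The mRNAs of the compound's own targets were close to vehicle. Mfn1 was at 111 and 109 CPM in the vehicle libraries and at 106 and 100.3 CPM in the MFI8 libraries (log2 fold change -0.10 ± 0.05 SE, adjusted p = 0.269 with the block in edgeR). Mfn2 was at 119 and 119 CPM with vehicle and at 123 and 126 CPM with MFI8 (log2 fold change 0.06 ± 0.05 SE, adjusted p = 0.528 with the block in edgeR). Of 18 genes for mitochondrial fusion and fission, 1 fell, Yme1l1, the inner membrane protease that cleaves OPA1, by 0.18 on the log2 scale, and it did not pass with the GC offsets. Opa1, the inner membrane fusion GTPase, was at 157 and 162 CPM with vehicle and at 157 and 157 CPM with MFI8.

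Among the largest rises, taken from genes whose groups did not overlap, were Atf3, Cxcl10, Ifit1, Fos, Hmox1, Gadd45a, Klf11, Chac1, Gem, Trib3 and Fosb. They encode transcription factors (Atf3, Fos, Klf11, Fosb), stress enzymes and regulators (Hmox1, Chac1, Trib3, Gadd45a), interferon-induced genes (Cxcl10, Ifit1) and a small GTPase (Gem). Atf3 encodes a stress-induced bZIP transcription factor, and lies at chr1:191170296-191218039 on the minus strand of GRCm38. It was at 2.24 and 3.07 CPM in vehicle replicates 1 and 2 and at 6.74 and 20.8 CPM in the MFI8 replicates. Both MFI8 libraries were above both vehicle libraries, and replicate 2 moved more than replicate 1 (log2 fold change 2.39 ± 0.47 SE, adjusted p = 0.217 without and 4.05e-08 with the block in edgeR). Cxcl10, a chemokine of the interferon response, was at 3.56 and 4.54 CPM with vehicle and at 9.65 and 15.9 CPM with MFI8 (log2 fold change 1.67 ± 0.24 SE, adjusted p = 0.118 without and 2.28e-07 with the block in edgeR). Ifit1, an interferon-induced RNA-binding protein, rested on few reads, 16 and 13 counts with vehicle and 23 and 65 counts with MFI8.

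The promoters of these 3 genes, and of Add2, the first named fall with an entry, are printed from RefSeq (GRCm38.p6). The printed promoters belong to the first genes with an entry among the largest named rises and falls, whose groups do not overlap. Each runs from 250 bases before the transcription start to 50 bases after it, 5′ to 3′ on the strand of the gene. Capitals mark AP-1 sites (TGANTCA), cores of the cAMP response element (TGACG), ATF4 and CHOP composite elements (TGATGNAA), antioxidant response element cores (TGACNNNGC), TATA boxes (TATAAA), CArG boxes and cores of the interferon element, on either strand. The last motif was added after the named genes were seen. Other boxes, named for GC, CCAAT and E, were searched too and are not capitalised.
Atf3: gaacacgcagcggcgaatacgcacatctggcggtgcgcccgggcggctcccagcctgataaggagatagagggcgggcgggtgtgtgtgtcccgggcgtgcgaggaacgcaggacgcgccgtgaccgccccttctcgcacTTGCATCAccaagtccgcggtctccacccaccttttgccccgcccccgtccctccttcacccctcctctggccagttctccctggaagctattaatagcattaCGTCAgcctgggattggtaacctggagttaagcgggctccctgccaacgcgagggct
Cxcl10: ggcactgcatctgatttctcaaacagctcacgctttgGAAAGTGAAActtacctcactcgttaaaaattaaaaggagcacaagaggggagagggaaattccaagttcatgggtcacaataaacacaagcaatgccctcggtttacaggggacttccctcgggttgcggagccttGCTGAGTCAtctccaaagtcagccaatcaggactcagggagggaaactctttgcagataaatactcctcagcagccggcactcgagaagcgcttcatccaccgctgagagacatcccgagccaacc
Ifit1: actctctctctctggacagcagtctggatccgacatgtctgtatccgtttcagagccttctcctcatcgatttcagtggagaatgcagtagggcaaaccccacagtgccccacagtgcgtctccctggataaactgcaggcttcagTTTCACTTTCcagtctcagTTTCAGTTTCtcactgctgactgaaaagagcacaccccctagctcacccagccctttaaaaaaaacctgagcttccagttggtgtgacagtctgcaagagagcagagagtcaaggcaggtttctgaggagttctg
Add2: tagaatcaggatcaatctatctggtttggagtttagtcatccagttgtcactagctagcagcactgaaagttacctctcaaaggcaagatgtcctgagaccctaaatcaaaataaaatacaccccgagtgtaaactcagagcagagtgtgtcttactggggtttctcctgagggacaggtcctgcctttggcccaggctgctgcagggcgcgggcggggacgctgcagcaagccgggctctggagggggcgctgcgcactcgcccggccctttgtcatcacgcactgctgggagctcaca

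The Atf3 promoter (chr1:191183284-191183583) held a composite element at -110 from the start, on the opposite strand, and a TGACG core at -7. In that of Cxcl10 (chr5:92348840-92349139) an AP-1 site at -74 overlapped an antioxidant response element core, and an interferon element core lay at -213. Ifit1 (chr19:34640639-34640938) had interferon element cores at -104 and -85. The Add2 window (chr6:86028431-86028730) held none of the capitalised motifs. Across the promoters of all genes in the table, 3.97% held the composite element, 7.81% an AP-1 site and 3.44% an interferon element core. Promoters of genes that rose held the composite element in 5.57% of 413 windows, those of genes that fell in 2.82% of 319, and those of all genes described in 2.1% of 11921. A match describes the letters only.

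**Figure D3:**
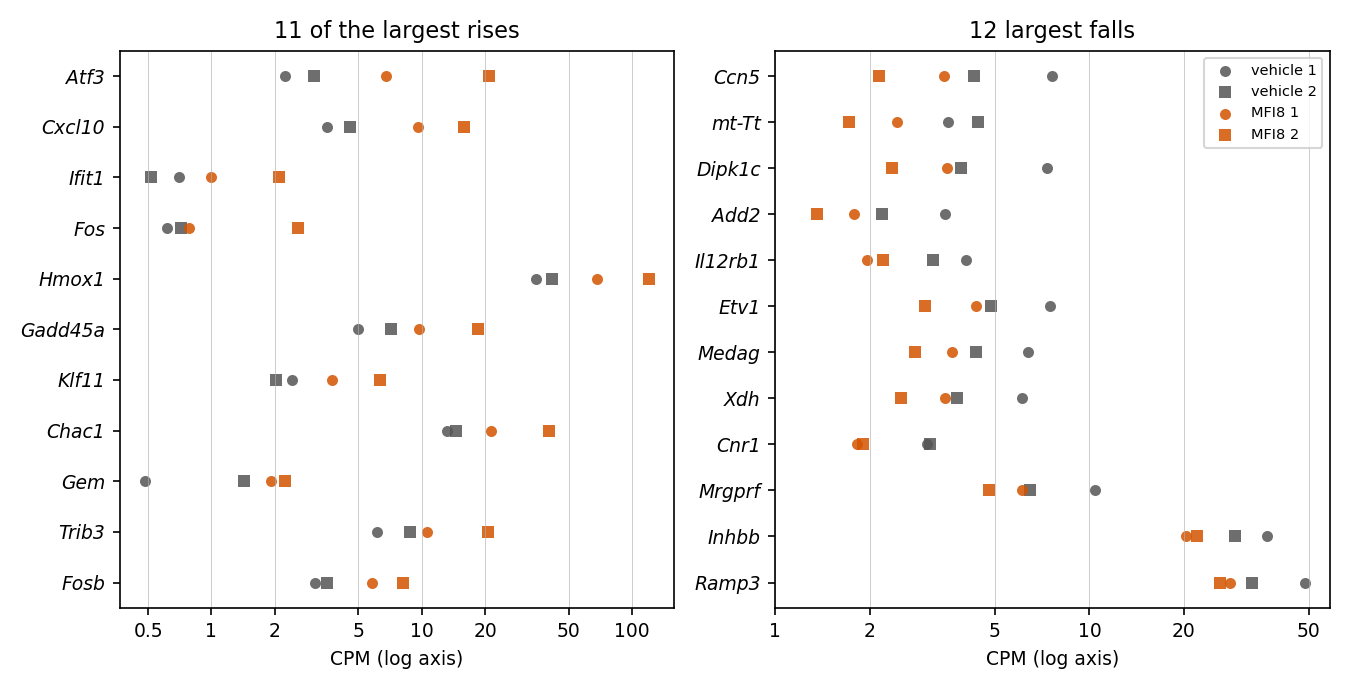
CPM in each vehicle (grey) and MFI8 (orange) library for 11 of the largest rises (left) and the 12 largest named falls (right), on log axes, with circles for replicate 1 and squares for replicate 2. In every row the orange and grey symbols are separated, as the rule of choice required. Atf3 spans 2.24 to 20.8 CPM and Ccn5 spans 2.13 to 7.60 CPM.

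Targets of ATF4 and CHOP rose in the largest share among the 46 lists described here. Of 34 listed genes, 32 were measured, 30 were higher and 2 lower, and 22 rose and 0 fell. With the GC offsets 21 rose. The list's median log2 fold change was 0.22 (0.20 in replicate 1 and 0.27 in replicate 2), against -0.0030 over all genes described, and both MFI8 libraries lay above both vehicle libraries for 24 of the 32. Its median GC content was 51.8%, against 49.5% for all.

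Regulators within the list were among those that rose. Ddit3, which encodes CHOP, was at 12.2 and 11.2 CPM with vehicle and at 17.4 and 21.2 CPM with MFI8. Trib3, a pseudokinase that CHOP induces and that restrains ATF4, was at 6.11 and 8.76 CPM with vehicle and at 10.6 and 20.8 CPM with MFI8 (log2 fold change 1.09 ± 0.30 SE). Chac1, an enzyme that degrades glutathione, was at 13.2 and 14.6 CPM with vehicle and at 21.3 and 40.1 CPM with MFI8 (log2 fold change 1.16 ± 0.28 SE). For each of these genes the groups did not overlap, and the library of MFI8 replicate 2 was the highest. Ppp1r15a, whose product GADD34 directs dephosphorylation of eIF2α, rose by 0.57 on the log2 scale, Sesn2, a leucine sensor that restrains mTORC1, by 0.48, and Atf4 itself by 0.21.

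Among the other members, Slc7a11, the cystine importer, was at 11.7 and 12.8 CPM with vehicle and at 19.7 and 24.2 CPM with MFI8, and is among the genes with the smallest p without the block (log2 fold change 0.85 ± 0.12 SE, adjusted p = 0.118 in edgeR). Its partner chain Slc3a2 rose by 0.32, the neutral amino acid carriers Slc1a4 and Slc7a5 by 0.34 and 0.22, and the cationic carrier Slc7a1 by 0.22. Gpt2, a mitochondrial alanine aminotransferase, rose by 0.37. Asns, asparagine synthetase, rose by 0.19 and Mthfd2, of mitochondrial folate metabolism, by 0.17, and the libraries of both overlapped between the groups, with replicates further apart than the groups. Members that did not pass included the serine synthesis enzymes Phgdh, at 340 and 346 CPM with vehicle and 355 and 390 CPM with MFI8, and Psat1, at 664 and 732 CPM with vehicle and 662 and 727 CPM with MFI8. Only 2 of 20 cytosolic aminoacyl-tRNA synthetases rose, Aars and Mars1, by 0.20 and 0.16. Tars passed in place of Aars with the GC offsets, and the groups overlapped for Mars1.

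The composite element was in 9 of 31 promoters (29%) found for 27 of the 32 members, against 2.1% for all genes described. Since the list holds known targets, that share is a description of the list. The matching stretches are shown because they carry the motif that these genes have in common, each read in the direction that gives TGATGNAA, in capitals, with 10 bases on either side.
Asns: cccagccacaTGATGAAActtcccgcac
Atf3: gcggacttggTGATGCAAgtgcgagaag
Chac1: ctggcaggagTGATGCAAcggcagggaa
Nupr1: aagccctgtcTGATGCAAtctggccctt
Pycr1: gccctgtgtaTGATGCAAtgcacaaggc
Slc1a4: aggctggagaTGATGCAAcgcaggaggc
Slc7a11: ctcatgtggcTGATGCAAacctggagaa
Trib3: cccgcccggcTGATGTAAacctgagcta
Vldlr: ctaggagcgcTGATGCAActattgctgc

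They lie at chr6:7693215-7693242, chr1:191183426-191183453, chr2:119351039-119351066, chr7:126625563-126625590, chr11:120643834-120643861, chr11:20332700-20332727, chr3:50443662-50443689, chr2:152344029-152344056 and chr19:27216810-27216837, in the same order, and Slc7a11 has a further match at chr3:50443643-50443670. Of these 9 genes, Pycr1 did not pass (log2 fold change 0.24, adjusted p = 0.0756 with the block in edgeR), and the others rose.

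**Figure D4:**
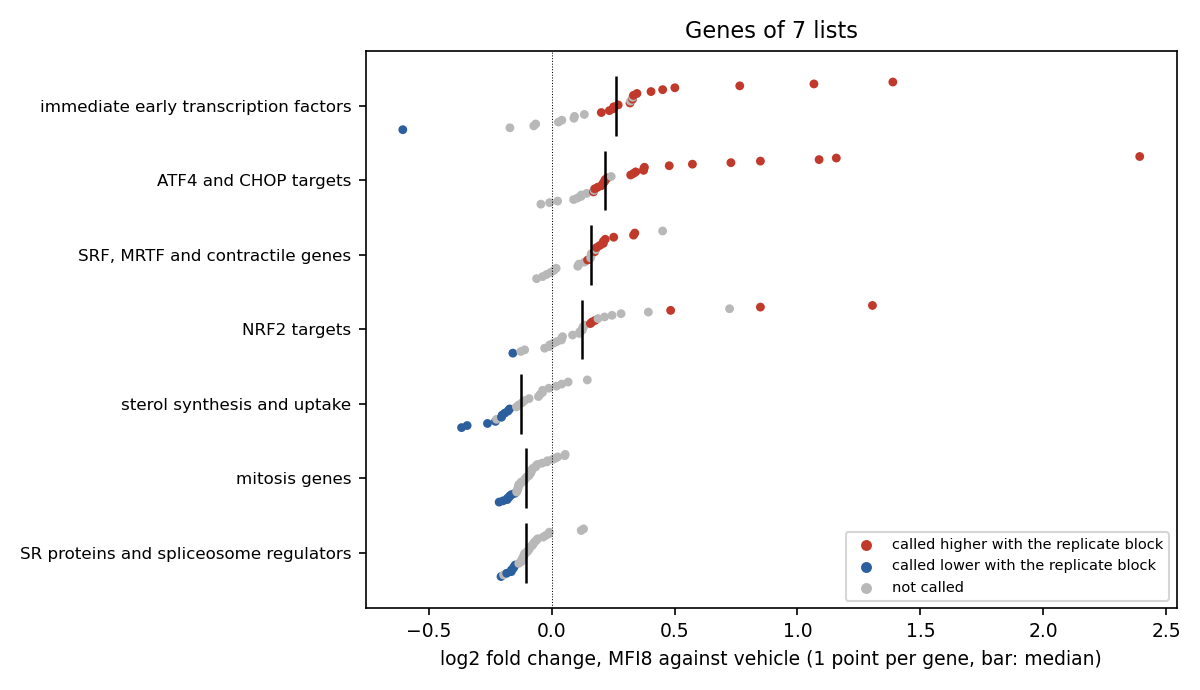
Log2 fold changes with MFI8 against vehicle for the genes of 7 lists, 1 point per gene, with a black bar at each list's median. Red and blue points passed with the replicate block: 22 of 32 ATF4 and CHOP targets were called higher, and 9 of 24 sterol genes were called lower.

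Other stress programmes moved in part. Of 30 NRF2 targets measured, 24 were higher, 6 rose (8 with the GC offsets) and 1 fell, with a list median of 0.13. Hmox1, heme oxygenase, was at 35.1 and 41.4 CPM with vehicle and at 68.4 and 120.2 CPM with MFI8 (log2 fold change 1.30 ± 0.22 SE, adjusted p = 0.128 without and 7.75e-10 with the block in edgeR). Sqstm1, the autophagy receptor p62, was at 225 and 204 CPM with vehicle and at 280 and 319 CPM with MFI8. Txnrd1, a thioredoxin reductase, rose by 0.18 and Gclm, which limits glutathione synthesis, by 0.16. Nqo1, a quinone reductase used as an NRF2 readout, did not pass, at 3.60 and 2.31 CPM with vehicle and 3.30 and 3.65 CPM with MFI8. Nfe2l2, which encodes NRF2 and stands outside the lists, was chosen after its values were seen. It was at 104 and 93.0 CPM with vehicle and at 78.4 and 75.3 CPM with MFI8, and fell by 0.36 on the log2 scale.

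Metallothioneins, which bind zinc and copper, rose in both measured genes, also with the GC offsets. Mt1 was at 27.1 and 16.6 CPM with vehicle and at 36.4 and 43.0 CPM with MFI8 (log2 fold change 0.87 ± 0.20 SE). Mt2 was at 59.8 and 43.0 CPM with vehicle and at 71.0 and 71.0 CPM with MFI8. Both MFI8 libraries were above both vehicle libraries for each gene. Slc30a1, the zinc exporter that shares their regulator MTF1, was at 11.4 and 7.68 CPM with vehicle and 12.7 and 10.8 CPM with MFI8 and did not pass.

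Genes for heme and iron changed in both directions. Slc48a1, which moves heme out of endolysosomes, was at 215 and 210 CPM with vehicle and at 258 and 277 CPM with MFI8 (log2 fold change 0.33 ± 0.05 SE, adjusted p = 0.118 without the block in edgeR). Ftl1, the ferritin light chain, whose counts may be shared with pseudogenes, rose by 0.16. Tfrc, the transferrin receptor that takes up iron, was at 487 and 548 CPM with vehicle and at 336 and 388 CPM with MFI8, with no overlap (log2 fold change -0.51 ± 0.08 SE, adjusted p = 0.118 without and 1.13e-07 with the block in edgeR). Of the 24 genes measured in this list, 3 rose and 1 fell (4 and 2 with the GC offsets).

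Chaperones that rose did so through MFI8 replicate 2. Hspa1a, the inducible HSP70, was at 1.67 and 2.95 CPM with vehicle and at 2.30 and 15.03 CPM with MFI8, so only MFI8 replicate 2 stood apart. Hspa1b, its near-identical neighbour with which it may share reads, was at 61.1 and 72.8 CPM with vehicle and at 60.4 and 134 CPM with MFI8. Dnajb1, an HSP40 cochaperone, was at 93.5 and 108 CPM with vehicle and 95.1 and 138 CPM with MFI8. The groups overlapped for all 3 genes, and without MFI8 replicate 2 their log2 fold changes were -0.01, -0.15 and -0.08. Dnajb1 did not pass with the GC offsets. The other 27 of 30 chaperone genes did not pass, among them Hspa8, the constitutive HSP70, at 1319 and 1444 CPM with vehicle and 1335 and 1551 CPM with MFI8. In the endoplasmic reticulum list 1 of 24 rose, Herpud1, by 0.44, while Hspa5, the lumenal chaperone BiP, was at 1242 and 1358 CPM with vehicle and 1254 and 1369 CPM with MFI8. The mitochondrial chaperone and protease list had 1 rise and 1 fall among 18 genes, the matrix protease Lonp1 (0.18) and Yme1l1, and neither passed with the GC offsets. Rises made up 4.17% of the endoplasmic reticulum list and 5.56% of the mitochondrial list, against 2.87% of all genes described. The fall was 5.56% of the mitochondrial list, against 2.93% of all.

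Most immediate early transcription factors were higher. Of 26 measured, 22 were higher, 15 rose and 1 fell, and the list median was 0.26 (0.15 in replicate 1 and 0.39 in replicate 2). With the GC offsets 14 rose. Fosb was at 3.12 and 3.54 CPM with vehicle and at 5.78 and 8.11 CPM with MFI8. Egr1, a zinc finger factor induced by SRF, was at 62.3 and 63.9 CPM with vehicle and at 72.6 and 141 CPM with MFI8, with the larger part of the rise in replicate 2. Fos rested on few reads, 14 and 18 counts with vehicle and 18 and 80 with MFI8. Jun, Junb, Jund, Myc, Klf6, Klf10 and Maff rose by 0.25 to 0.45 on the log2 scale, Junb not with the GC offsets. Egr3 went the other way, at 19.6 and 11.4 CPM with vehicle and 11.7 and 8.76 CPM with MFI8, and its groups overlapped. Nr4a1 and Nr4a2, orphan nuclear receptors that are immediate early genes too, did not pass, with log2 fold changes of 0.13 and -0.06.

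Of 19 genes of feedback on ERK, 7 rose (6 with the GC offsets) and 0 fell, with a list median of 0.10. Those that rose were 5 phosphatase genes, the ETS factor gene Etv4, which did not pass with the GC offsets, and Phlda1. Dusp4, a nuclear phosphatase of ERK, was at 26.8 and 18.3 CPM with vehicle and at 35.1 and 31.1 CPM with MFI8. Dusp1, Dusp8, Dusp10 and Dusp16, which act mainly on p38 and JNK, rose by 0.49, 0.44, 0.34 and 0.27. Dusp6, a cytoplasmic phosphatase of ERK, did not pass, at 45.8 and 35.5 CPM with vehicle and 43.6 and 35.1 CPM with MFI8. None of the inhibitors Spry1, Spry2, Spry4, Spred1, Spred2 and Spred3 passed, with log2 fold changes from -0.15 for Spred1 to 0.04 for Spred3.

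In the SRF, MRTF and contractile list 20 of 24 genes were higher, and 10 rose (8 with the GC offsets) and 0 fell, with a list median of 0.16 (0.14 in replicate 1 and 0.15 in replicate 2). Acta2, smooth muscle actin, was at 175 and 310 CPM with vehicle and at 239 and 372 CPM with MFI8. Within each pair the MFI8 library was higher, yet the groups overlapped, and leaving out vehicle replicate 1 or MFI8 replicate 2 turned the unblocked log2 fold change to -0.02 in both cases. Tagln, transgelin, had the same pattern, at 20.9 and 42.0 CPM with vehicle and 30.9 and 48.5 CPM with MFI8. Actg1, cytoplasmic actin, did not depend on the pairing to separate, at 1280 and 1288 CPM with vehicle and 1483 and 1505 CPM with MFI8.

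Of 16 YAP and TEAD targets 5 rose, also with the GC offsets, with a list median of 0.05 that was -0.01 with those offsets. F3, tissue factor, was at 35.3 and 39.3 CPM with vehicle and at 57.1 and 62.2 CPM with MFI8, and had the smallest p of all genes without the block (log2 fold change 0.68 ± 0.09 SE, adjusted p = 0.118 in edgeR). Ccn2, the matricellular protein CTGF, was at 86.8 and 117 CPM with vehicle and at 119 and 168 CPM with MFI8. Ccn1, its relative CYR61, was at 524 and 814 CPM with vehicle and at 695 and 1049 CPM with MFI8, higher in each pair although the groups overlapped. Ankrd1, a cardiac ankyrin repeat protein, rose by 0.27 and Amotl2, an angiomotin that binds YAP, by 0.18. Yap1 itself, outside the list, fell by 0.15.

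**Figure D5:**
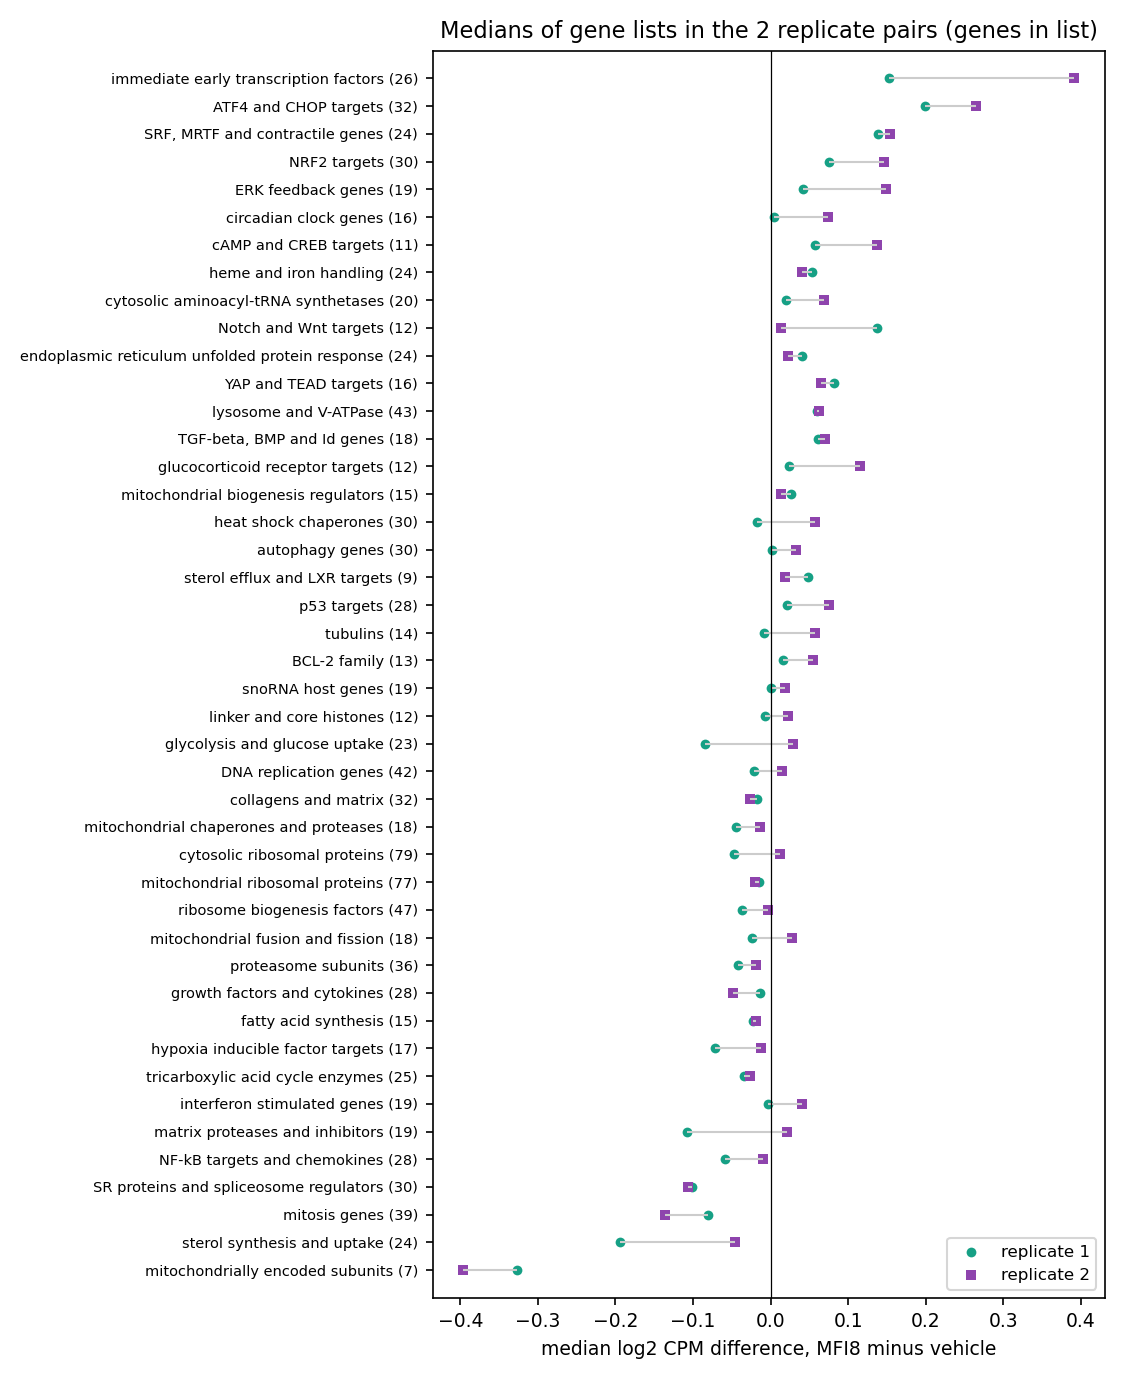
Median log2 CPM difference between MFI8 and vehicle for each list of at least 7 measured genes, in replicate 1 (circles) and replicate 2 (squares), with the number of genes in parentheses. Immediate early factors, ATF4 and CHOP targets and SRF genes lie to the right in both replicates, and mitosis genes, SR proteins, sterol genes and mitochondrially encoded subunits lie to the left.

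Most genes of sterol synthesis and uptake were lower. Of 24 measured, 20 were lower, 9 fell (6 with the GC offsets) and 0 rose, with a list median of -0.13. That median was -0.19 in replicate 1 and -0.05 in replicate 2. Hmgcs1, which commits acetyl-CoA to the mevalonate pathway, was at 152 and 125 CPM with vehicle and at 104 and 110 CPM with MFI8 (log2 fold change -0.37 ± 0.09 SE). Idi1 and Stard4, a mevalonate pathway isomerase and a sterol carrier, fell by 0.34 and 0.26, and Idi1 did not pass with the GC offsets. Srebf2, the regulator of the pathway, was at 327 and 306 CPM with vehicle and 312 and 329 CPM with MFI8 and did not pass. In fatty acid synthesis 2 of 15 fell: Scd2, a desaturase, was at 990 and 782 CPM with vehicle and at 720 and 632 CPM with MFI8, and Elovl6, an elongase, fell by 0.24. Fasn and Scd1 were lower as well with the GC offsets, although the log2 fold change of Fasn was 0.02 without them. Of 9 sterol efflux genes 0 passed in edgeR with or without the block, and 1 was higher at an unadjusted p under 0.05. The smallest adjusted p in edgeR with the block was 0.0537, for Srebf1, the regulator of fatty acid synthesis.

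Of 43 lysosome and V-ATPase genes 32 were higher and 5 rose (6 with the GC offsets), and the list median was 0.05. Mcoln1, the lysosomal calcium channel TRPML1, was at 29.7 and 28.8 CPM with vehicle and at 37.3 and 36.5 CPM with MFI8. Fnip1, a folliculin partner in nutrient sensing, was at 43.5 and 41.9 CPM with vehicle and at 47.5 and 56.3 CPM with MFI8. Gaa and Ctsd, a glucosidase and a protease of the lumen, rose by 0.19 and 0.17, Gaa not with the GC offsets. In the autophagy list Sqstm1 rose, and the mitophagy receptors Bnip3 and Bnip3l fell by 0.41 and 0.20, neither of which passed with the GC offsets. The other 27 of 30 autophagy genes did not pass. In this list 3.33% rose and 6.67% fell, against 2.87% and 2.93% of all genes described.

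Mitosis genes were mostly lower. Of 39 mitosis genes 34 were lower, 8 fell (12 with the GC offsets) and 0 rose, with a list median of -0.11 (-0.08 in replicate 1 and -0.14 in replicate 2). Kif11, a spindle motor, was at 248 and 285 CPM with vehicle and at 225 and 240 CPM with MFI8. Ccna2, cyclin A, was at 445 and 483 CPM with vehicle and 413 and 407 CPM with MFI8, and Hmmr, Nusap1, Kif23, Aurka, Top2a and Cdk1 fell by 0.15 to 0.21, Nusap1 not with the GC offsets. With MASM7, Kif11 was at 230 and 235 CPM, Ccna2 at 429 and 422 CPM, Hmmr at 119.5 and 127 CPM and Nusap1 at 66.1 and 73.8 CPM. For each of these genes both MASM7 libraries lay below both vehicle libraries too. Among 42 DNA replication genes 18 were higher and 24 lower. Of these, 2 rose (4.76%, against 2.87% of all genes described), Pold1 and Cdt1, neither of them with the GC offsets. The median GC content of the mitosis list was 46.3%.

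Of 28 p53 targets 4 rose, 5 with the GC offsets, and 0 fell. Gadd45a, which stalls the cell cycle and which ATF4 induces too, was at 4.96 and 7.17 CPM with vehicle and at 9.73 and 18.5 CPM with MFI8 (log2 fold change 1.23 ± 0.28 SE). Besides Sesn2, the polo-like kinases Plk3 and Plk2 rose by 0.37 and 0.25. Cdkn1a, the p21 inhibitor that is the best known p53 target, was at 58.8 and 37.7 CPM with vehicle and 59.4 and 47.5 CPM with MFI8, and Mdm2 was at 85.7 and 87.9 CPM with vehicle and 90.8 and 90.0 CPM with MFI8. Neither passed. Of 13 BCL-2 family genes only Bnip3 passed, which is in the autophagy list as well.

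Splicing factors were lower almost throughout, on transcripts of low GC content. Of 30 SR proteins and spliceosome regulators, 28 were lower, 7 fell and 0 rose, with a list median of -0.10 in both the pooled fit and replicate 1 and -0.11 in replicate 2. The list's median GC content was 43.2%, and with the GC offsets 3 fell. Srsf1, an SR protein that selects splice sites, was at 906 and 932 CPM with vehicle and at 790 and 804 CPM with MFI8. Tardbp, the RNA-binding protein TDP-43, was at 613 and 648 CPM with vehicle and at 542 and 569 CPM with MFI8. The part of GC content in these values was not tested beyond the offsets.

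Of 77 mitochondrial ribosomal protein genes and 36 genes of the proteasome list, 0 passed in edgeR with or without the block. At an unadjusted p under 0.05 without the block, 1 was higher and 3 lower in the first list and 0 and 2 in the second. The smallest adjusted p in edgeR with the block among the named members was 0.0973 for Mrpl50 and 0.0686 for Psmd6. Of 79 cytosolic ribosomal proteins, 1 fell, Rps15a, by 0.15, and with the GC offsets 2 were higher and 1 lower. Of 47 ribosome biogenesis factors, 2 fell, the nucleolar protein Npm1 by 0.19 and the pseudouridine synthase Dkc1 by 0.15. Neither passed with the GC offsets, where 2 other members were lower, Nop58 and Tsr1. In the tricarboxylic acid cycle and in glycolysis 1 gene each fell, Suclg1 and Pgam1, by 0.17 and 0.19, and with the GC offsets Pgam1 passed with Pkm, a further glycolysis gene, and no tricarboxylic acid cycle gene passed. Among mitochondrially encoded subunits 6 of 7 fell. All 6 passed with the GC offsets too, but the list median went from -0.36 to -0.19 with them, on transcripts of 37.1% median GC. Of these genes mt-Nd5, of complex I, was at 1768 and 2011 CPM with vehicle and at 1328 and 1473 CPM with MFI8. The 1 exception, mt-Nd6, the subunit encoded on the other strand, was at 72.3 and 64.4 CPM with vehicle and 66.1 and 87.7 CPM with MFI8, and passed as higher with the GC offsets only. Counts of these genes may be shared with nuclear copies of mitochondrial DNA.

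Matrix and chemokine genes changed in both directions. Of 32 collagen and matrix genes, 3 rose and 6 fell (1 and 9 with the GC offsets). Col3a1, a fibrillar collagen, was at 89.6 and 50.3 CPM with vehicle and at 56.9 and 39.8 CPM with MFI8, lower in each pair with overlapping groups. Vcan and Dcn, the proteoglycans versican and decorin, fell by 0.39 and 0.37, and Col5a1, Col6a1 and Col6a2 by 0.22 to 0.24. The basement membrane chains Col4a1 and Col4a2 rose by 0.20 and 0.22, but not with the GC offsets, and Thbs1, thrombospondin, was at 400 and 457 CPM with vehicle and at 504 and 553 CPM with MFI8. Of 19 matrix proteases and inhibitors 4 rose and 0 fell, against 3 higher and 1 lower, Timp2, with the GC offsets. Plaur, the urokinase receptor, was at 134 and 128 CPM with vehicle and at 163 and 163 CPM with MFI8.

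Interferon and NF-κB genes passed in both directions. Of 28 NF-κB targets and chemokines, Cxcl10, the ribonuclease gene Zc3h12a and the cyclooxygenase gene Ptgs2 rose and Ccl7, Cxcl1, Cxcl12, Ccl2 and Vcam1 fell. With the GC offsets 2 rose and 3 fell, since Zc3h12a, Ccl2 and Vcam1 did not pass. Cxcl12, a fibroblast chemokine, was at 147 and 156 CPM with vehicle and at 125 and 134 CPM with MFI8. Of 19 interferon stimulated genes Ifit1 rose and Ddx58 and Irf1 fell, by 0.31 and 0.21. Ifit2, a close relative of Ifit1, was at 31.2 and 31.97 CPM with vehicle and 31.98 and 32.9 CPM with MFI8.

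Of 16 clock genes 4 rose and 0 fell, against 2 higher and 1 lower, Per2, with the GC offsets. Ciart, a repressor of the clock, was at 5.18 and 4.30 CPM with vehicle and at 6.65 and 8.08 CPM with MFI8, and Per1 rose by 0.29. Of 12 glucocorticoid receptor targets 4 rose, Dusp1, Mt2, Per1 and Sgk1, the first 3 of which stand in other lists too, and 3 passed with the GC offsets. Of 18 genes of the TGF-β list, 4 rose and 2 fell (3 and 2 with the GC offsets). Tgfbi, a secreted matrix protein, was at 16.3 and 8.08 CPM with vehicle and 10.9 and 6.37 CPM with MFI8, and without vehicle replicate 1 its log2 fold change was 0.07. Id2, an inhibitor of bHLH factors, fell by 0.25, and 0 of 12 Notch and Wnt genes passed in edgeR with the block (with the GC offsets 1 was lower, Ccnd1, named after its value was seen), also 0 at an unadjusted p under 0.05 without the block, where Dtx4 had an adjusted p of 0.136 with the block. Tubb3, a neuronal tubulin that MEFs express and that is 1 of the neural markers, was at 25.1 and 26.1 CPM with vehicle and at 35.4 and 31.9 CPM with MFI8. It was the 1 of 14 tubulins that rose, and with the GC offsets Tuba1b and Tuba1c were lower. H1f2, a linker histone whose transcripts are mostly not polyadenylated, rose from 4.57 and 5.14 CPM to 7.26 and 8.98 CPM.

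Remaining lists held few calls. Of 11 cAMP and CREB targets, Fosb and Per1 rose, Per1 not with the GC offsets. Of 28 growth factors and cytokines, 3 rose, Ccn2 and Ccn1 among them, and Inhbb and Ereg, epiregulin, fell (4 higher and 1 lower with the GC offsets). Tiparp, a poly-ADP-ribosyltransferase and 1 of 2 measured aryl hydrocarbon receptor targets, was at 150 and 145 CPM with vehicle and at 115 and 124 CPM with MFI8. Of 17 hypoxia inducible factor targets, Ndrg1 and Bhlhe40 rose and Bnip3 and P4ha1 fell, and with the GC offsets Ndrg1 and Bnip3 did not pass. Ndrg1, a growth-arrest gene, was at 84.0 and 56.3 CPM with vehicle and 84.5 and 80.8 CPM with MFI8, and without vehicle replicate 2 its log2 fold change was -0.02. Of 15 mitochondrial biogenesis regulators and 19 host genes of small nucleolar RNAs, 0 passed in edgeR with the block, and 3 and 0 were lower at an unadjusted p under 0.05 without it. With the GC offsets added, 1 and 0 were called lower, the 1 being Yy1, named after its value was seen. Tfam, the mitochondrial DNA packaging factor, was at 80.4 and 84.8 CPM with vehicle and 73.2 and 73.5 CPM with MFI8 (adjusted p = 0.0523 in edgeR with the block).

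Several genes outside the lists had small p or large changes. Nav2, a neuron navigator, was at 44.6 and 41.9 CPM with vehicle and at 57.5 and 56.1 CPM with MFI8, and Kmt2d, a histone methyltransferase, at 134 and 118 CPM with vehicle and 167 and 169 CPM with MFI8. Both are among the 6 genes of smallest p in their direction without the block. With the GC and length offsets the log2 fold change of Nav2 went from 0.39 to 0.25 and that of Kmt2d from 0.42 to 0.19. Arl6ip5, a membrane protein that binds glutamate transporters, was at 153 and 153 CPM with vehicle and at 124 and 123 CPM with MFI8. Plscr2, a phospholipid scramblase, was at 47.4 and 53.8 CPM with vehicle and at 33.2 and 37.3 CPM with MFI8. The replicates of each group lay closer together for these 4 genes than the groups did. The next genes were chosen after their values were seen. Gadd45g, a relative of Gadd45a, was at 20.95 and 27.0 CPM with vehicle and at 32.9 and 57.2 CPM with MFI8, and Arc, an immediate early gene of neurons, at 16.4 and 16.6 CPM with vehicle and 22.6 and 33.2 CPM with MFI8. Malat1, a nuclear long non-coding RNA, was at 347 and 340 CPM with vehicle and 456 and 396 CPM with MFI8. Gm43333, a gene model, had the largest log2 fold change of all (3.44) through 1 library, at 0.922 and 0.597 CPM with vehicle and 16.4 and 0.937 CPM with MFI8. In the MASM7 libraries it was at 17.3 and 17.7 CPM.

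The largest named falls were Ccn5, mt-Tt, Dipk1c, Add2, Il12rb1, Etv1, Medag, Xdh, Cnr1, Mrgprf, Inhbb and Ramp3. Ccn5, a matricellular protein also called WISP2, was at 7.60 and 4.30 CPM with vehicle and at 3.43 and 2.13 CPM with MFI8 (log2 fold change -1.11 ± 0.38 SE, adjusted p = 0.391 without and 0.000244 with the block in edgeR). Add2, an adducin of the membrane skeleton, was at 3.47 and 2.19 CPM with vehicle and 1.78 and 1.36 CPM with MFI8. Inhbb, a subunit of activins and inhibins, was at 36.8 and 29.0 CPM with vehicle and at 20.4 and 21.9 CPM with MFI8. Ramp3, which modifies calcitonin family receptors, was at 48.7 and 33.0 CPM with vehicle and 27.9 and 26.1 CPM with MFI8. In all 12 the groups were separated, as the rule of choice required, and in 10 of them vehicle replicate 1 was the highest library. Il12rb1, a chain of the interleukin-12 receptor, fell by 0.79 on the log2 scale, the ETS factor Etv1 by 0.76 and Xdh, xanthine dehydrogenase, by 0.73. Of these, mt-Tt, a mitochondrial tRNA, and Cnr1, a cannabinoid receptor, did not pass with the GC offsets.

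Pseudogenes were lower in replicate 2. Of 812 pseudogenes 35 fell and 4 rose, and their median log2 difference was -0.02 in replicate 1 and -0.28 in replicate 2. Counting of reads between a gene and its pseudogenes is uncertain, so these are given as counts only. Of 317 candidates for the largest falls, 37 were gene models, against 6 of 331 for the rises, and none of them is named among the 12 largest rises and falls. At a mean of at least 5 CPM, 21 genes differed by over 1.2-fold in opposite directions in the pairs. Among them, Denn2b was at 19.9 and 15.1 CPM with vehicle and 13.7 and 18.3 CPM with MFI8, and Prelid3a, whose relatives carry lipids in mitochondria, was at 6.06 and 8.68 CPM with vehicle and 8.69 and 6.56 CPM with MFI8.

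Values from the MASM7 libraries are given side by side only, since the dose differed. With MASM7 Atf3 was at 2.48 and 3.65 CPM, Chac1 at 15.03 and 23.5 CPM and Trib3 at 8.01 and 11.4 CPM in replicates 1 and 2. Hmox1 was at 45.0 and 54.4 CPM, Cxcl10 at 4.45 and 3.95 CPM and Slc7a11 at 13.6 and 12.4 CPM. Tfrc was at 485 and 489 CPM and F3 at 37.5 and 43.1 CPM. Plaur was at 162 and 156 CPM, Thbs1 at 495 and 544 CPM, Tubb3 at 33.4 and 33.5 CPM, Kmt2d at 152 and 161 CPM and Acta2 at 238 and 387 CPM. These genes were picked after their values were seen, and the distance from vehicle or MFI8 differs among them. No test was made between the compounds.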

How the data were processed

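Reads of polyadenylated RNA had been trimmed with Trimmomatic, aligned to GRCm38 with STAR and counted on exons with featureCounts by the authors, who deposited raw counts per gene. The authors also deposited TPM values, used here for marker levels and 1 alternative, and counts divided by size factors, which were not used. Versions of the trimming, alignment and counting tools, the annotation release, the strand setting and gene lengths are not given in the sources used here.

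With edgeR 4.0.16 (R 4.3.3), counts of all 6 libraries were scaled by TMM and modelled with 1 coefficient per group, over genes with at least 10 counts in each of the 4 MFI8 and vehicle libraries. MFI8 was compared with vehicle by the quasi-likelihood F test with Benjamini-Hochberg adjustment at 0.05, and again with the replicate number as a block. SE was derived from the log2 fold change and the F statistic. CPM used TMM factors, and within-pair log2 CPM a prior count of 2. P-values measure the spread between these libraries only.

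The pairing rests on the numbers in the labels, which name no shared batch. Replicate differences (2 minus 1) of the groups correlated across genes at 0.25 (vehicle and MFI8), 0.27 (vehicle and MASM7) and 0.23 (MASM7 and MFI8), so the blocked values stand beside the others. Offsets for GC and transcript length were fitted per library by lowess (span 0.3) on GENCODE vM21, which named 12752 of the 12988 genes. Promoters came from RefSeq (GRCm38.p6), with chromosome 18 left out, and were searched on both strands. The 46 gene lists and the genes described were chosen with earlier results of these data known. A list is described by its counts and median, with no test. Named genes were the 12 largest rises and falls called with the block whose libraries did not overlap at a mean CPM of at least 1, the 6 smallest p in each direction without the block, up to 4 called genes per list, 3 per pair of those that moved oppositely, Mfn1 and Mfn2. Gene models were counted, not named, among the largest changes and smallest p; genes named otherwise, Gm43333 among them, were chosen after their values were seen. Some genes that meet the rule are not reported here. Scripts for the fits were tested on simulated data. The alternatives were DESeq2 1.42.0, limma 3.58.1 on log2(TPM + 1), other normalizations and filters, 4 libraries only, and each library left out. GC offsets with the block for list medians were chosen after seeing the data.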

Additional observations from a re-analysis of the deposited data

How the results depend on the processing

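Depth and 2 replicates per group limit what can be called: genes of few counts, such as Fos and Ifit1, have wide errors. The count of genes at an adjusted p under 0.05, which was 0 without the block, was 753 with the replicate block, the pairing by number. With the block it was 867 in only the 4 libraries, 720 with filterByExpr, 730 with library size alone (466 higher, 264 lower, against 373 and 380 with TMM), 608 with offsets for GC and length, and 193 with DESeq2. Without the block it was 47 with DESeq2 and 256 with no filter beyond 1 count, and from 0 to 24 when 1 library was left out: 24 without MFI8 replicate 1, 2 without MFI8 replicate 2, 1 without vehicle replicate 2 and 0 without each other library. It was 0 with DESeq2's size factors, library size alone, filterByExpr, 50 counts, only the 4 libraries, GC offsets without the block, and limma on TPM with or without the block (smallest adjusted p 0.0501 with it). The cause of these differences was not tested. Genes past 1.5-fold in both pairs, 76, became 459 at a threshold between 1.2-fold and 1.5-fold, 4 at 2-fold and 19 at 50 counts.

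Leaving out 1 library in turn reversed 13 of the 134 named genes. The log2 fold change ranged from -0.0134 to 2.69 for Hspa1a, -0.15 to 1.00 for Hspa1b and -0.0842 to 0.46 for Dnajb1, lowest without MFI8 replicate 2. It ranged from -0.0184 to 0.55 for Ndrg1, lowest without vehicle replicate 2, and from -0.94 to 0.0749 for Tgfbi, highest without vehicle replicate 1. For Tagln it ranged from -0.0728 to 0.94 and was -0.0318 without MFI8 replicate 2, and for Acta2 it ranged from -0.0228, without MFI8 replicate 2, to 0.81 and was -0.0189 without vehicle replicate 1. The other 6 were named because they moved oppositely in the pairs. Denn2b ranged from -0.34 to 0.0987, Prelid3a from -0.198 to 0.33 and the gene model Gm24187 from -0.217 to 0.28. The gene models Gm5781, Gm2000 and Gm6204 ranged from -1.15 to 0.164, -0.72 to 0.109 and -0.64 to 0.21. A group left with 1 library was assumed to vary like the others. The values of the other named genes kept their direction in each alternative run. Over all 134 named genes and all alternative runs, 733 values passed where the value without the block had not. Of 46 list medians, 24 kept their sign throughout.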
